A study of Mus musculus with 152 samples.

Results

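The comparison described here is the earliest in a feeding study: livers of mice given LIDPAD, which models non-alcoholic fatty liver disease by diet, against livers of mice given the control diet, both after 1 week. It was taken as all columns labelled week 1, 8 for control and 8 for LIDPAD, which are 16 of the 152 samples of the series. All mice were of the inbred strain C57BL/6J and began their diet at 8 weeks of age, and the labels name no transgene, drug or other treatment in either group. Total liver RNA was extracted with TRIzol and a purification column and made into Illumina libraries. Sex, hour of collection, feeding state and the number of animals behind a sample are not in the labels.

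Each run of 4 consecutive columns of a diet behaved as 1 library. The chi-square per gene between columns was 2.03 to 2.24 within such blocks, 3.85 to 4.06 between the control blocks and 7.11 to 7.63 between the LIDPAD blocks. Blocks were therefore averaged, which gave 2 control and 2 LIDPAD libraries, each counted as 1 sample. The labels do not state that different libraries are different animals, so the p-values cover the spread among 4 libraries only, and this spread may be technical. Library depth was 42.9 and 53.8 M reads (M, 1000000) for the control diet and 49.6 and 35.3 M for LIDPAD. Mitochondrial ribosomal RNA took 18.4 to 20.2% of reads. Values are in FPM, reads per 1000000 (fragments, in the authors' naming) after division by a size factor. FPM is not scaled by gene length, so levels are compared between libraries and not between genes. Log2 differences are LIDPAD minus control on log2(FPM + 0.5), given ± SE, and understate the change of low genes.

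The liver is where most of the body's cholesterol and much of its fatty acid are made on demand. When sterols are plentiful, the SREBP transcription factors are held in the endoplasmic reticulum and the genes of sterol and fatty acid synthesis are less transcribed, while sterol-activated LXR receptors turn on genes for sterol export. PPAR alpha drives fatty acid oxidation genes when fatty acids reach the cell, and the circadian clock times much of this metabolism to the daily cycle of feeding and fasting.

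Genes of hepatocytes were abundant in every library. Alb, which encodes serum albumin, was at 44853 and 45608 FPM in the control libraries and at 38485 and 31088 FPM in the LIDPAD libraries, and none of the 7 hepatocyte markers was called. Acinar markers of the pancreas were at 0 in all libraries except Cela1, which was at 5.56 to 9.66 FPM. The summed level of 7 neutrophil markers was 0.105 to 0.958 FPM and that of 6 B and plasma cell markers 1.28 to 2.86 FPM. In whole liver, fewer cells of a type and less RNA per cell cannot be told apart.

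One library stood apart. LIDPAD library 2 had 121 genes more than 2-fold above each of the other 3 libraries, against 15 for control library 1, 2 for control library 2 and 7 for LIDPAD library 1. Saa2, an acute phase serum amyloid that shares 31.8% of its 50-base words with Saa1, was at 4.92, 4.25 and 9.84 FPM in control libraries 1 and 2 and LIDPAD library 1, and at 164 FPM in LIDPAD library 2. Lcn2, the siderophore-binding protein lipocalin 2, was at 2.44, 0.885, 4.00 and 51.0 FPM in the same order. Mmp12, a macrophage elastase, was at 0.0457 to 0.419 FPM in the first 3 and at 11.1 FPM in LIDPAD library 2, and Gpnmb, a glycoprotein of lipid-laden macrophages, was at 0 to 0.228 FPM and 8.62 FPM. Col1a1, a fibrillar collagen chain, was at 3.53, 2.99, 5.56 and 23.7 FPM, and Mki67, a proliferation marker, at 3.59, 2.22, 3.31 and 13.1 FPM. These genes were chosen for the gap after their values were seen and carry no test. The results below are given with and without this library where it matters.

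**Figure D1:**
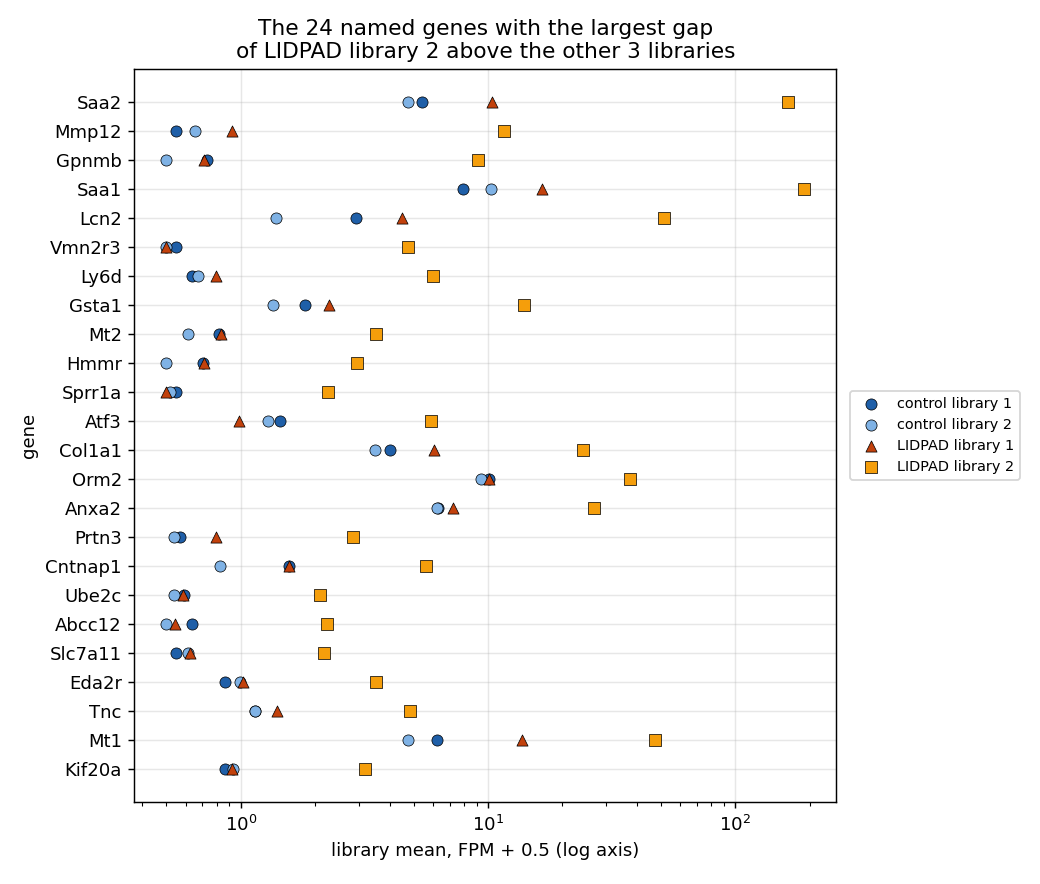
Library means in FPM plus 0.5, on a log axis, for the 24 genes with a gene name whose level in LIDPAD library 2 lay farthest above the other 3 libraries. Each point is 1 library; Saa2 is at 164 FPM in LIDPAD library 2 against at most 9.84 FPM elsewhere.

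After 1 week, 250 of 12538 tested genes (1.99%) differed between the diets at an adjusted p under 0.05 (limma, Benjamini-Hochberg). Of these, 91 were higher (0.726%) and 159 lower (1.27%) on LIDPAD, and the median log2 difference of all tested genes was 0.0068. Genes whose LIDPAD libraries both lay above both control libraries made up 24.2% of those tested, and genes with both below made up 24.4%. Among the called genes, 22 passed the filter of 1 FPM only through the diet in which they were higher. Their difference is partly set by the filter. Of these, 10 are named here: Cfd, Ciart, Cidec, Krt23, Saa3, Themis and Usp2 among the rises and Chrna4, Fdps and Pnpla3 among the falls. Values of these 10 are a description and no test is read from them, though counts of called genes include them. Dbp, Npas2 and Moxd1 reached 1 FPM in only 1 library of the diet in which they were lower. They too needed the other diet to pass, and their p-values carry this limit. Every library left out in turn still gave a call for 35 of the 250 genes (14.0%). With 1 LIDPAD library left out, the lone library is assumed to vary as the control pair does, and the 250 were all called again, among 913 genes without LIDPAD library 1 and 787 without LIDPAD library 2. Without control library 1 or 2, 37 and 66 of the 250 were called again, among 39 and 87 genes.

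**Figure D2:**
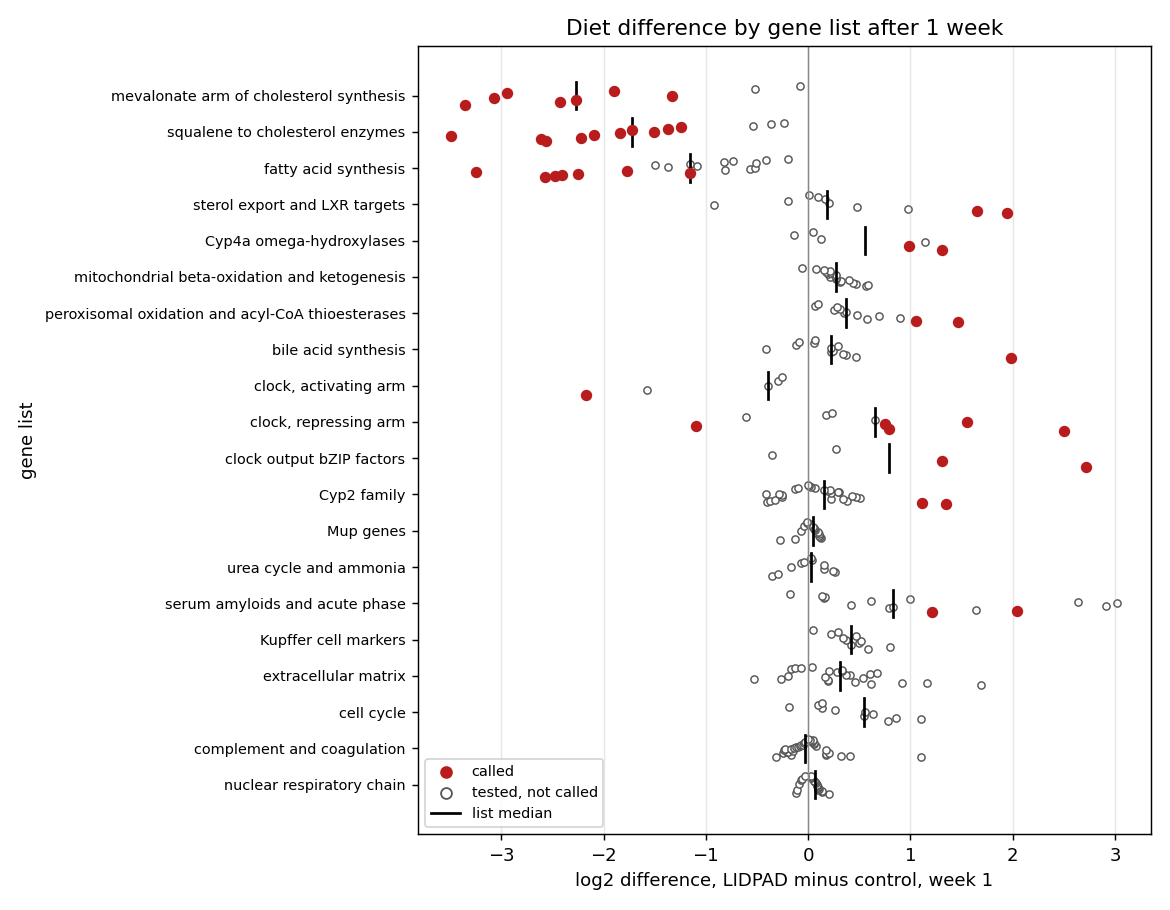
Log2 difference, LIDPAD minus control after 1 week, of every tested gene of 20 gene lists. Filled points are called genes, open points tested genes that were not called, and the bar is the list's median, which runs from -2.27 for the mevalonate arm to 0.83 for serum amyloids and acute phase proteins.

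The enzymes that make cholesterol were lower on LIDPAD at nearly every step. In the mevalonate arm, from acetyl-CoA to farnesyl pyrophosphate, 7 of 9 tested genes fell and none rose, with a median log2 difference of -2.27. Between squalene and cholesterol 10 of 13 fell and none rose, with a median of -1.72. Idi1, isopentenyl diphosphate isomerase, was at 107 and 81.9 FPM in the control libraries and 8.93 and 8.52 FPM in the LIDPAD libraries, a log2 difference of -3.35 ± 0.14 (adjusted p = 0.000425). The diets were far apart for this gene, and the LIDPAD libraries nearly equal, although 30.5% of its 50-base words are shared with other annotated genes, so a part of its reads cannot be placed with certainty. Sqle, squalene epoxidase and a slow step of the pathway, was at 67.2 and 38.3 FPM on control and 3.19 and 5.17 FPM on LIDPAD (-3.49 ± 0.28, adjusted p = 0.00306). Control library 1 lay above control library 2 for all 22 genes of both lists, by a median of 0.38 in the mevalonate arm and 0.43 after squalene on the log2 scale, while in the 17 called genes both LIDPAD libraries lay below both.

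The remaining called enzymes moved together. Hmgcs1, HMG-CoA synthase, was at 226 and 138 FPM on control and 38.7 and 34 FPM on LIDPAD (-2.27 ± 0.21). Fdps, farnesyl diphosphate synthase, fell by 3.07 ± 0.29 and Mvd, mevalonate diphosphate decarboxylase, by 2.94 ± 0.29 on the log2 scale. Nsdhl and Cyp51, which remove methyl groups from the sterol ring, fell by 2.61 ± 0.17 and 2.56 ± 0.15. The smallest called changes were those of Tm7sf2, a sterol reductase, and Mvk, mevalonate kinase, at -1.24 ± 0.22 and -1.33 ± 0.13. Acat2, Ggps1, Ebp and Lbr were among the tested genes that were not called. Left out in turn, the libraries gave 6 to 8 calls in the mevalonate arm and 6 to 11 after squalene, the lowest count without control library 1 in both.

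**Figure D3:**
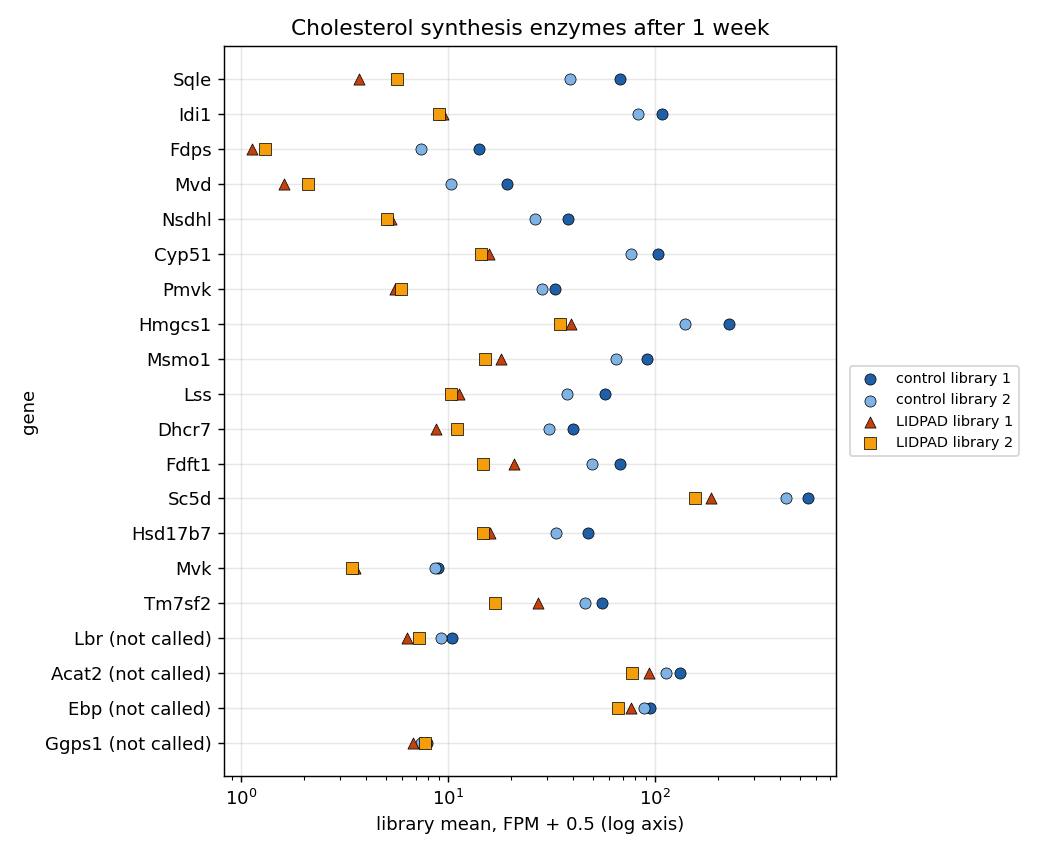
Library means in FPM plus 0.5, on a log axis, for 20 of the 22 tested enzymes of cholesterol synthesis, ordered by log2 difference. In the 16 called genes shown, both LIDPAD libraries lie below both control libraries; Sqle falls from 67.2 and 38.3 FPM to 3.19 and 5.17 FPM.

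Because these genes moved together, their upstream sequences were read from RefSeq (GRCm38.p6) and searched on both strands for the sterol regulatory element as TCACNCCAC and for the CCAAT box, bound by NF-Y, as CCAAT. Of 27 genes of sterol synthesis and its regulation, 19 matched an entry. A CCAAT box was found in the window from 250 bases before to 50 after a start site for 18 of the 19, and for 15 of the 15 called ones, while 41.1% of all 27025 genes have one. It was also found for 13 of 16 clock genes and for the 2 sterol export genes Abcg5 and Abcg8, which rose. The box was thus not particular to the genes that fell. The sterol element in this spelling was found for 1 of the 19, Hmgcs1, against 1.44% of all genes. A match is a description of letters and not a measured site. The 250 bases before the start are shown for 4 of the called enzymes, 5′ to 3′ on the gene's strand, with the matches in capitals. They are Hmgcs1 at chr13:119690101-119690350 on the plus strand, Idi1 at chr13:8885356-8885605 on the plus strand, Cyp51 at chr5:4104698-4104947 on the minus strand and Mvd at chr8:122443423-122443672 on the minus strand.
Hmgcs1: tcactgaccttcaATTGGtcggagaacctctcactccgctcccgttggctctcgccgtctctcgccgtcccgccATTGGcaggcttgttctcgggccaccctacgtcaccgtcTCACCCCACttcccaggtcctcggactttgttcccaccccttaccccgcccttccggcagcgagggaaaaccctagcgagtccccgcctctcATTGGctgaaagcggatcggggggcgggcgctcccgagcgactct
Idi1: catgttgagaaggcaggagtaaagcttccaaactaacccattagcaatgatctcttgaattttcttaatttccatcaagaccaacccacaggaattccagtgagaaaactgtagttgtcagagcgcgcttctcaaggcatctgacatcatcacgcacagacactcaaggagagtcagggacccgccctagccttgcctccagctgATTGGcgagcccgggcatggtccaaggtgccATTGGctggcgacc
Cyp51: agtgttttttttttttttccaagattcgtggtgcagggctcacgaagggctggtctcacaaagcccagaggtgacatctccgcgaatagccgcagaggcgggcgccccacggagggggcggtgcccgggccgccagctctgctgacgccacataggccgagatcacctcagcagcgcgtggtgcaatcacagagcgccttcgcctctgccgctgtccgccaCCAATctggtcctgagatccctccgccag
Mvd: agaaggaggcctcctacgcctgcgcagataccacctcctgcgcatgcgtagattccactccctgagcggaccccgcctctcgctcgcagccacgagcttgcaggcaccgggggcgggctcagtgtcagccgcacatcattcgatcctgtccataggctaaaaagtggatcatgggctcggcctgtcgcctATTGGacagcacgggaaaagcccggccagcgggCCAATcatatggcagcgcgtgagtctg
In Hmgcs1 the single sterol element starts 137 bases before the start site, with CCAAT boxes on the opposite strand at 237, 176 and 45 bases before it. Idi1 and Mvd hold 2 CCAAT boxes each and Cyp51 holds 1, and no match overlaps another.

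Some regulators of the same pathway fell, and 2 sterol export genes rose. Of 14 tested SREBP regulators and uptake genes, 5 fell and 1 rose (median -0.24). Insig1, which anchors SREBP in the endoplasmic reticulum and is itself an SREBP target, was at 430 and 366 FPM on control and 94.7 and 116 FPM on LIDPAD (-1.92 ± 0.14, adjusted p = 0.00167). Srebf2, the factor SREBP2, fell by 0.77 ± 0.11, while Scarb1, the HDL receptor, rose by 0.50 ± 0.09. Without control library 1 or 2 the list held 2 calls.

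Abcg5 and Abcg8, whose products form the heterodimer that exports sterols into bile, were the only called genes among 10 sterol export and LXR target genes in the fit of all 4 libraries. Abcg5 was at 32.5 and 33.1 FPM on control and at 127 and 128 FPM on LIDPAD (1.94 ± 0.09, adjusted p = 0.000518). Abcg8 was at 45.3 and 48.2 FPM on control and at 154 and 142 FPM on LIDPAD (1.65 ± 0.10, adjusted p = 0.000697). Within each diet the libraries were nearly equal, and both genes stayed called whichever library was left out. They lie head to head on chromosome 17, with the RefSeq windows around their starts sharing 209 bases. The median of the same list was 0.18, and it was 0.14 without LIDPAD library 1 and 0.23 without LIDPAD library 2.

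Fatty acid synthesis was lower as well, with a wide gap between the control libraries. Of 19 tested genes 7 fell and none rose, with a median of -1.15. Both LIDPAD libraries lay below both control libraries for 15 of the 19, against 24.4% of all tested genes. Fasn, fatty acid synthase, was at 2081 and 1074 FPM on control and at 258 and 308 FPM on LIDPAD (-2.40 ± 0.28, adjusted p = 0.0111). Acly, ATP citrate lyase, was at 761 and 376 FPM on control and at 108 and 117 FPM on LIDPAD (-2.25 ± 0.29, adjusted p = 0.0142). In both genes the control libraries differed by about as much as a doubling, yet the lower of them stayed far above LIDPAD. Acss2, which makes acetyl-CoA from acetate, fell by 2.57 ± 0.24 and Acacb, the mitochondrial acetyl-CoA carboxylase, by 2.48 ± 0.24. Pklr, liver pyruvate kinase, fell by 1.15 ± 0.17, with 23.2% of its words shared with Hcn3, and G6pdx, which supplies NADPH, by 1.77 ± 0.29. Scd1, stearoyl-CoA desaturase, was at 18986 and 11759 FPM on control and 12606 and 9998 FPM on LIDPAD and was not called. All 19 genes were higher in control library 1 than in control library 2, by a median of 0.78 on the log2 scale. Fewer genes of the list were called without control library 1 than with all 4 libraries. The list's median was -1.16 without LIDPAD library 1 and -1.25 without LIDPAD library 2.

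The genes that handle fat after synthesis split. Cidec, a lipid droplet protein that promotes droplet fusion, was at 0.890 and 0.695 FPM on control and at 3.85 and 8.20 FPM on LIDPAD (2.26 ± 0.31). Plin4, another droplet coat protein, rose by 0.89 ± 0.16. It was the called member of 10 droplet genes apart from Cidec, from which no test is read. Pnpla3, a lipid droplet hydrolase, was at 17.7 and 5.24 FPM on control and at 0.377 and 0.824 FPM on LIDPAD (-3.24 ± 0.49). Angptl4, an inhibitor of lipoprotein lipase, rose by 0.94 ± 0.10 and Angptl8, a feeding-induced secreted protein, fell by 1.46 ± 0.24. Among 14 genes of uptake and activation, Cd36, a fatty acid transporter, rose by 1.00 ± 0.11, whereas Fabp5, a fatty acid-binding protein, fell by 3.31 ± 0.18 from 111 and 75.4 FPM to 8.07 and 9.46 FPM. Acsl3 and Acsl5, acyl-CoA synthetases, fell by 1.15 ± 0.20 and 0.89 ± 0.13. In glycerolipid synthesis Gpam, the mitochondrial acyltransferase of the first step, fell by 1.56 ± 0.27 and Gpat4, an acyltransferase of the endoplasmic reticulum, rose by 0.73 ± 0.13. Without control library 1 or 2 Plin4 was not called.

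Mitochondrial oxidation genes held no call. None of 19 tested genes of mitochondrial beta-oxidation and ketogenesis was called by limma, with 8 at an unadjusted p under 0.05, all higher, and a median of 0.27. Of all 12538 tested genes, 1965 had such a p in either direction. In this list edgeR called 0 genes and DESeq2 called 2. Acadm, medium-chain acyl-CoA dehydrogenase, was at 101 and 110 FPM on control and 174 and 141 FPM on LIDPAD (0.56 ± 0.13, adjusted p = 0.0889). For 13 of the 19 genes both LIDPAD libraries lay above both control libraries, against 24.2% of all tested genes. All 19 were higher in LIDPAD library 1 than in LIDPAD library 2, by a median of 0.31. Without LIDPAD library 2 the list's median was 0.42, and without LIDPAD library 1 it was 0.09. In the peroxisomal and thioesterase list, Acot1 and Acot2, which split acyl-CoA, rose by 1.06 ± 0.13 and 1.46 ± 0.18 of 13 tested, with 27.7% of Acot2's words shared with other genes, chiefly Acot1. Cyp4a14, a fatty acid omega-hydroxylase, rose from 20.9 and 16.5 FPM to 55.8 and 39.0 FPM (1.31 ± 0.19, adjusted p = 0.0208), and Cyp4a31 of the same family, with 21.8% of its words shared, rose by 0.99 ± 0.15. Aldh3a2, a fatty aldehyde dehydrogenase, rose by 1.08 ± 0.19. With either control library left out, the lists of thioesterases, Cyp4a genes and other PPAR alpha targets held no call.

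Cyp7a1, whose product sets the rate at which bile acids are made from cholesterol, was the single called gene of 13 tested in that pathway. It was at 43.1 and 33.1 FPM on control and at 210 and 108 FPM on LIDPAD (1.98 ± 0.28, adjusted p = 0.0216). Both LIDPAD libraries lay above the control libraries, although they differed nearly as much from each other as a doubling. Abcb4, the phospholipid exporter of the bile canaliculus, rose from 134 and 134 FPM to 193 and 210 FPM (0.59 ± 0.10). Neither gene was called without control library 1 or without control library 2.

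Genes of the circadian clock moved in both arms. Of 5 tested genes of the activating arm 1 fell (median -0.39), of 9 in the repressing arm 4 rose and 1 fell (median 0.66), and of 4 output factors 2 rose (median 0.79). Npas2, a partner of the activator Arntl, was at 5.81 and 6.41 FPM on control and at 0.523 and 1.60 FPM on LIDPAD (-2.17 ± 0.31, adjusted p = 0.0231). Arntl itself was at 15.3 and 17.9 FPM on control and at 3.12 and 8.58 FPM on LIDPAD, a lack of overlap that was not called (-1.57 ± 0.37, adjusted p = 0.10). LIDPAD library 1 was the lower of the LIDPAD libraries for both genes. Ciart, a repressor of the clock's activating pair, was at 0.296 and 0.0756 FPM on control and at 3.12 and 3.57 FPM on LIDPAD (2.50 ± 0.24). Dbp, a clock-controlled transcription factor, was at 1.61 and 0.733 FPM on control and at 14.6 and 6.96 FPM on LIDPAD (2.72 ± 0.36, adjusted p = 0.0171), with 27.5% of its words shared with Sphk2. Tef, a relative of Dbp, rose by 1.31 ± 0.21, Per3, a period gene, by 1.55 ± 0.27, and Nr1d1 and Nr1d2, which encode the REV-ERB repressors of Arntl, by 0.79 ± 0.10 and 0.75 ± 0.12. Cry1, a cryptochrome repressor, fell by 1.10 ± 0.17. Usp2, a deubiquitinase with a daily rhythm in liver, rose from 0.818 and 0.752 FPM to 5.08 and 4.10 FPM (1.98 ± 0.18). Without control library 1 the 3 clock lists held 0, 1 and 1 calls, and without control library 2 they held 0, 1 and 0.

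**Figure D4:**
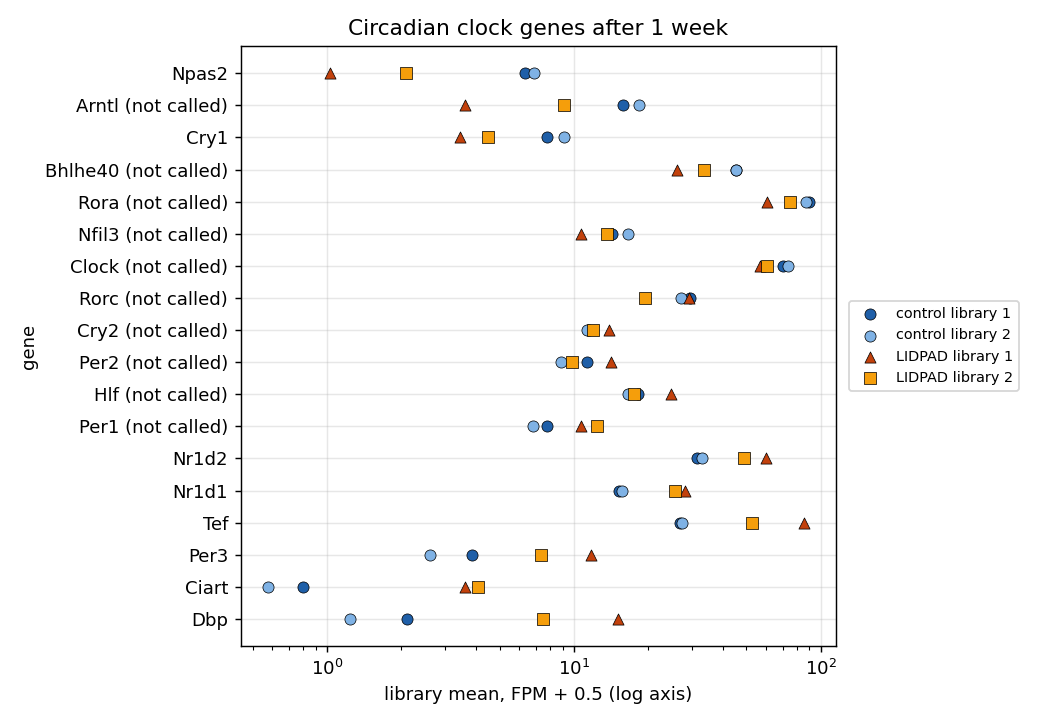
Library means in FPM plus 0.5, on a log axis, for the 18 tested clock genes, ordered by log2 difference. Genes at the top are lower on LIDPAD and genes at the bottom higher; Npas2 falls to 0.523 and 1.60 FPM and Dbp rises to 14.6 and 6.96 FPM.

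The upstream sequences of 2 of the genes that rose are shown because they hold the elements through which the clock is known to act: the E-box, spelled CACGTG and bound by the activating pair, and the D-box, spelled TTATGNAA and bound by Dbp and its relatives. Ciart lies at chr3:95882229-95882478 and Per3 at chr4:151044666-151044915, both on the minus strand, with matches on either strand in capitals.
Ciart: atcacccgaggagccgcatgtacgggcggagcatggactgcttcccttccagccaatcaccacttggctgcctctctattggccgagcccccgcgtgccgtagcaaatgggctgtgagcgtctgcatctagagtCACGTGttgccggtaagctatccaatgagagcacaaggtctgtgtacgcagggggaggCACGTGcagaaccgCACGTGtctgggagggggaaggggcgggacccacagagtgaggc
Per3: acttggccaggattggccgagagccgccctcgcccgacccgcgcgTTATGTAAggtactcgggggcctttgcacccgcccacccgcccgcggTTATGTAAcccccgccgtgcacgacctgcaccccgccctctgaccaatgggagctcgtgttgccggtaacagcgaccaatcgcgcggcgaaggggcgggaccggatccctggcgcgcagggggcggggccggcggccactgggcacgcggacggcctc
Ciart holds 3 E-boxes, starting 116, 58 and 44 bases before the start site, and Per3 holds 2 D-boxes, starting 205 and 158 bases before it. Of the 16 clock genes with an entry, 5 had an E-box and 2 a D-box in a window of 250 bases before to 50 after a start, against 8.09% and 3.99% of all genes. Of the 8 called ones, 3 had an E-box, among them Cry1, which fell, and 1 had a D-box. Nr1d1, Nr1d2 and Dbp, which rose, had neither. An E-box was also found for 4 of the 19 sterol genes with an entry.

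Other metabolic genes changed singly. Pck1, the committed enzyme of glucose production, rose from 781 and 681 FPM to 1255 and 1540 FPM (0.93 ± 0.15, adjusted p = 0.0336), while G6pc, glucose-6-phosphatase, fell from 455 and 438 FPM to 271 and 272 FPM (-0.72 ± 0.10, adjusted p = 0.0226), out of 18 tested genes of that list. Tsku, a secreted leucine-rich protein of hepatocytes, rose from 13.5 and 11.8 FPM to 48.7 and 56.7 FPM (2.01 ± 0.12, adjusted p = 0.000697) and Inhbe, an inhibin chain, by 0.68 ± 0.12. Among nuclear receptors Nr1i2, the xenobiotic receptor PXR, rose by 0.55 ± 0.10 and Ppard, PPAR delta, fell by 1.47 ± 0.19, and of 15 growth hormone axis genes Cish and Elovl3 fell by 1.65 ± 0.19 and 1.31 ± 0.12 while Bcl6 rose by 0.86 ± 0.15. Upp2, uridine phosphorylase, rose from 92.5 and 63.0 FPM to 302 and 257 FPM (1.86 ± 0.18, adjusted p = 0.00541). Rdh11, a retinol dehydrogenase, fell by 2.41 ± 0.21, and Pcyt2, of phosphatidylethanolamine synthesis, by 0.58 ± 0.10. Hamp2, a relative of hepcidin with 26.8% of its words shared, fell by 1.62 ± 0.21.

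Detoxification and stress genes rose in small numbers. Por, the electron donor of microsomal cytochromes P450, was at 31.1 and 30.9 FPM on control and at 116 and 96.6 FPM on LIDPAD (1.76 ± 0.11, adjusted p = 0.00106). It was the single called gene of 8 in the Cyp3a and reductase list (median 0.65). All 8 had both LIDPAD libraries above both control libraries, against 24.2% of all tested genes. Cyp2a5 and Cyp2a4, which share 40.8% and 38.8% of their words with other genes, chiefly each other, rose by 1.35 ± 0.18 and 1.11 ± 0.20, the called members of 27 Cyp2 genes. Gsta2, a glutathione transferase, and Ephx1, epoxide hydrolase, rose by 1.36 ± 0.18 and 0.97 ± 0.16, with 64.2% of Gsta2's words shared with other genes. Herpud1, of endoplasmic reticulum protein disposal, Hspb1, a small heat shock protein, and Chac1, which degrades glutathione, rose by 0.95 ± 0.11, 0.99 ± 0.14 and 1.19 ± 0.22. Hspb1 shares 51.65% of its words with Hsp25-ps1. Dusp1, an early-response phosphatase, fell by 1.34 ± 0.21.

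Cfd, a protein-coding gene at chr10:79890853-79892655 (GRCm38, GENCODE), encodes complement factor D, best known as adipsin of fat cells, and had the largest rise of all named genes. It was at 0.342 and 0.753 FPM on control and at 38.2 and 10.3 FPM on LIDPAD (4.32 ± 0.52). The diets did not overlap, but the LIDPAD libraries were far apart. The defining fat cell markers Adipoq, Plin1, Lep and Retn were at 0 to 0.113 FPM in every library. Among 5 tested adipocyte markers only Cfd and Cidec were counted as called. Both passed the filter only through LIDPAD, and no test is read from them. Fabp4 was at 2.30, 2.90, 2.69 and 3.60 FPM. The sum of the adipocyte list, of which Car3 is most, was 1512 and 1850 FPM on control and 2724 and 1564 FPM on LIDPAD. This sum thus follows Car3 and not the defining markers, and the part of fat cells in the rise of Cfd was not tested. Chrna4, at chr2:181018380-181043546, encodes a subunit of the nicotinic acetylcholine receptor and had the largest fall of the named genes. It was at 24.0 and 8.16 FPM on control and at 0.252 and 0.268 FPM on LIDPAD (-4.26 ± 0.42). Adam11, an ADAM family protein, rose from 2.62 and 3.01 FPM to 15.5 and 15.1 FPM (2.26 ± 0.13, adjusted p = 0.000697). Moxd1, a monooxygenase-like protein, was at 6.77 and 6.15 FPM on control and at 0.0834 and 1.54 FPM on LIDPAD (-2.67 ± 0.50, adjusted p = 0.0498), and was not called by DESeq2 (adjusted p = 0.455).

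Serum amyloids and acute phase genes were highest in LIDPAD library 2, while the called genes Cxcl9 and Gbp2 were at like levels in both LIDPAD libraries. Of 15 serum amyloids and acute phase genes 2 rose, with a median of 0.83, and all 15 were highest in LIDPAD library 2. So were all 11 tested Kupffer cell markers and 3508 of all 12538 tested genes. Saa4 was at 68.5 and 79.4 FPM on control and at 150 and 195 FPM on LIDPAD (1.21 ± 0.15, adjusted p = 0.0125). Saa3 was at 0.682 and 0.942 FPM on control and at 3.31 and 7.08 FPM on LIDPAD (2.04 ± 0.32). Without LIDPAD library 2 the list's median was 0.44, and without LIDPAD library 1 it was 1.21. With either control library left out, no gene of the list was called. Cxcl9 and Gbp2, which interferon gamma induces, rose by 0.83 ± 0.13 and 0.83 ± 0.15. In the LIDPAD libraries they were at 8.93 and 9.69 FPM and at 5.83 and 5.56 FPM. The 17 tested interferon response genes held 1 call, with a median of 0.40. Both LIDPAD libraries lay above both control libraries for 14 of them, against 24.2% of all tested genes. Of 7 tested chemokines 1 was called (median 0.74), and 5 had both LIDPAD libraries above both control libraries. Krt23, a keratin, rose by 1.84 ± 0.24. Themis, a thymocyte protein, rose from 0.227 and 0.245 FPM to 1.43 and 1.22 FPM (1.31 ± 0.24), while 7 of 8 T and NK cell markers were below the filter, with Cd3e at 0 to 0.137 FPM. Hba-a2, an alpha globin, fell by 0.60 ± 0.11, with 86.9% of its words shared with Hba-a1. The summed level of erythroid markers was 519 and 473 FPM on control and 394 and 330 FPM on LIDPAD, and the part of red cell content was not tested.

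Macrophage, matrix and cell cycle lists held no call. No gene was called among 11 Kupffer cell markers (median 0.42, 8 at an unadjusted p under 0.05), 6 lipid-associated macrophage markers (0.76, 4), 24 matrix genes (0.31, 5) and 11 cell cycle genes (0.54, 0). Of all 12538 tested genes, 1965 had an unadjusted p under 0.05 in either direction. Both LIDPAD libraries lay above both control libraries for 8, 4, 9 and 3 genes of these lists, against 24.2% of all tested genes. By edgeR none of these lists held a call, and by DESeq2 they held 2, 1, 0 and 0. Vsig4, a Kupffer cell receptor, was at 10.8 and 12.7 FPM on control and 16.5 and 19.4 FPM on LIDPAD (0.59 ± 0.13, adjusted p = 0.0889), and Lgals3, galectin 3, at 1.21, 1.41, 2.72 and 8.10 FPM in the order control 1, control 2, LIDPAD 1, LIDPAD 2. Summed cell cycle levels were 37.4, 35.9 and 37.7 FPM in the first 3 libraries and 82.0 FPM in LIDPAD library 2. Without that library the medians of the 4 lists were 0.27, 0.35, 0.05 and 0.06, and without LIDPAD library 1 they were 0.70, 1.08, 0.56 and 0.98. All 7 class II presentation genes had both LIDPAD libraries above both control libraries and an unadjusted p under 0.05 (median 0.50). None was called by limma, edgeR or DESeq2. Their median was 0.53 without LIDPAD library 1 and 0.43 without LIDPAD library 2. H2-Aa was at 13.8 and 11.6 FPM on control and at 17.0 and 20.4 FPM on LIDPAD (0.54 ± 0.14, adjusted p = 0.116).

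Much of the hepatocyte programme held no call. None of 18 major urinary protein genes, 11 urea cycle genes, 13 hepatocyte transcription factors, 13 apolipoproteins, 32 complement and coagulation genes, 23 nuclear and 13 mitochondrial respiratory chain genes was called by limma, with 0, 1, 7, 2, 3, 0 and 1 at an unadjusted p under 0.05. Of all 12538 tested genes, 1965 had such a p. Of the 7 transcription factors with such a p, 6 were lower on LIDPAD. Both LIDPAD libraries lay below both control libraries for 7 of the 13 factors, against 24.4% of all tested genes. They lay above for 4, against 24.2%. The median of the transcription factors was -0.28 without LIDPAD library 1 and -0.13 without LIDPAD library 2. By edgeR the 7 lists held no call, and by DESeq2 they held 0, 0, 2, 0, 1, 0 and 0. Their medians were 0.05, 0.03, -0.19, 0.11, -0.03, 0.07 and -0.19. Foxa2, a hepatocyte pioneer factor, was at 12.1 and 11.6 FPM on control and 8.49 and 6.66 FPM on LIDPAD (-0.62 ± 0.14, adjusted p = 0.0913). Fkbp5, a glucocorticoid-induced chaperone, was at 13.6 and 7.51 FPM on control and 22.2 and 32.0 FPM on LIDPAD (1.35 ± 0.27, adjusted p = 0.0631).

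The diet difference of week 1 was then compared with the mean of those at weeks 4, 8 and 12 in 1 model. The columns of those weeks were averaged in blocks of 4 in the same way, to 2 control and 2 LIDPAD libraries per week. That such a block behaves as 1 library was checked here at week 1 only. None of 14202 genes (0.0%) differed by limma, with 852 (6.0%) at an unadjusted p under 0.05. No count test was run on this contrast. This does not show that the differences were alike: for Idi1 the contrast was -0.14 ± 0.47 on the log2 scale. The diet difference of that gene was -3.35 at week 1 and -3.07, -2.87 and -3.69 at weeks 4, 8 and 12. For Chrna4 it was -4.26, then -3.85, -3.42 and -3.00, and for Cidec 2.26, then 1.92, 4.01 and 4.44. Cyp7a1 was called at week 1 only among these weeks, with 1.98, then 1.36, 0.66 and 0.36, and a week 1 minus later difference of 1.19 that was not called (adjusted p = 0.797). Upp2 stood at 1.86, then 1.11, 0.43 and -0.04 (adjusted p = 0.71 for the same contrast). Genes called in each week's own fit were 0.121% higher and 0.166% lower at week 4, 3.85% and 1.75% at week 8, and 8.99% and 6.25% at week 12.

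**Figure D5:**
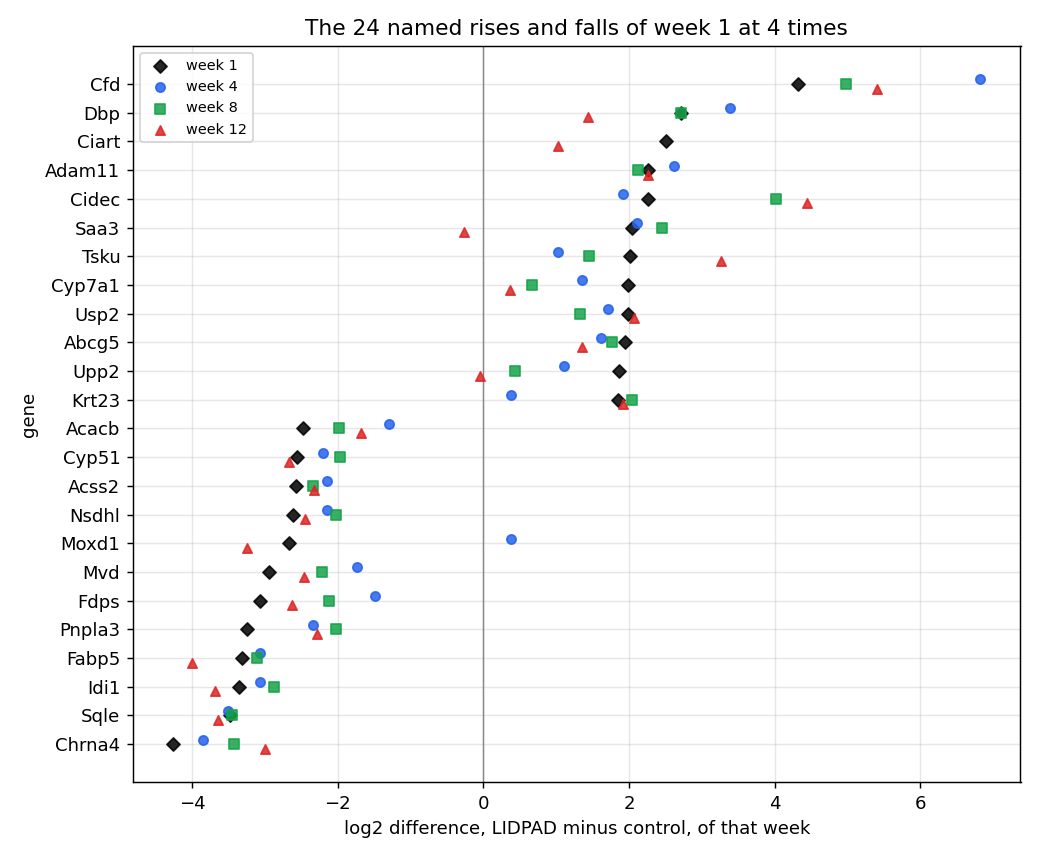
Log2 difference, LIDPAD minus control, of the 12 largest named rises and 12 largest named falls of week 1, with the same genes at weeks 4, 8 and 12. Each point is the difference between 2 LIDPAD and 2 control libraries of that week; a missing point is a gene below the filter of that week. Cidec goes from 2.26 at week 1 to 4.44 at week 12, and Cyp7a1 from 1.98 to 0.36.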

How the data were processed

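Liver RNA-seq libraries of C57BL/6J mice on the control or LIDPAD diet for 1 week were analysed from the authors' deposited signal values, FPM: gene counts divided by 1 factor per column, per 1000000. Per the submitters' processing notes, HISAT2, featureCounts, DESeq2 and the build GRCm38 were used, with no role or version; annotation, strand setting and filters are not given in the sources used here. Whole reads were recovered within 0.02 reads for 100% of week 1 values. A gene with 2 reads was 5.88 times as frequent as one with 1 read, so reads came largely in pairs and a chi-square near 2 is sampling noise.

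The 16 columns were averaged in blocks of 4 into 4 libraries. limma 3.58.1 (R 4.3.3) was fitted to log2(FPM + 0.5) with a mean-variance trend, on genes with at least 1 FPM in at least 2 libraries; p-values are two-sided, adjusted by Benjamini-Hochberg over all genes tested, and called under 0.05. Weeks 4, 8 and 12 entered a joint fit for the comparison of weeks. Alternatives were other pseudocounts, filters and scalings, no trend, a replicate block, each library left out, each column as a sample, and edgeR 4.0.16 and DESeq2 1.42.0 on recovered reads. Library numbers follow column order and do not pair libraries. The scripts were tested on simulated data.

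The 64 gene lists and the samples compared were chosen with earlier results of these data known. Named are the 12 largest rises and falls among called genes whose diets do not overlap, predicted genes left out, called list members, the 2 members with the smallest p of lists with no call, and defining cell markers; the genes of LIDPAD library 2 were chosen after their values were seen. Some genes are not reported here, though counts and medians over lists include them. Shared words are 50-base words of a gene's longest GENCODE transcript found in another gene's transcripts. Python 3.11.15 with pandas 2.3.3, matplotlib 3.10.9 and numpy 2.4.6 served for tables and plots.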

Additional observations from a re-analysis of the deposited data

Results flagged for a closer look

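The diet difference at week 1 was also set against that at week 12 alone, with 2 libraries per diet in each week. In a limma fit of weeks 1, 4, 8 and 12, 10 of 14202 genes differed at an adjusted p under 0.05, 4 with the higher difference at week 1 and 6 with the lower. None was called when week 1 was set against week 4 or week 8 alone.

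Adgrf1, an adhesion G protein-coupled receptor, was at 13.5 and 17.7 FPM on control and 8.04 and 5.56 FPM on LIDPAD at week 1, and at 18.3 and 14.7 FPM against 0.295 and 0.433 FPM at week 12. The contrast of week 1 minus week 12 was 3.15 ± 0.35 on the log2 scale (adjusted p = 0.00767). Plin4, a lipid droplet coat protein, was at 6.76 and 5.08 FPM on control and 10.7 and 11.9 FPM on LIDPAD at week 1, and at 7.57 and 8.77 FPM against 98.2 and 87.7 FPM at week 12. The contrast of week 1 minus week 12 was -2.54 ± 0.33 on the log2 scale (adjusted p = 0.0224). Themis, a protein known from thymocytes, was at 0.227 and 0.245 FPM on control and 1.43 and 1.22 FPM on LIDPAD at week 1, and at 0.531 and 0.39 FPM against 24.9 and 25.9 FPM at week 12. The contrast of week 1 minus week 12 was -3.45 on the log2 scale. 

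Cyp2c70, a bile acid hydroxylase of the mouse, was at 293 and 349 FPM on control and 374 and 438 FPM on LIDPAD at week 1, and at 385 and 348 FPM against 192 and 203 FPM at week 12. The week 1 difference minus the week 12 difference was 1.23 ± 0.17 on the log2 scale (adjusted p = 0.0253). Igfbp3, an IGF carrier protein, was at 8.88 and 8.44 FPM on control and 10.2 and 9.41 FPM on LIDPAD at week 1, and at 9.38 and 8.16 FPM against 21.3 and 21.2 FPM at week 12. Its difference at week 1 minus that at week 12 was -1.06 ± 0.15 on the log2 scale (adjusted p = 0.0253). Kyat1, a kynurenine aminotransferase, was at 60.5 and 67.8 FPM on control and 52.1 and 53.5 FPM on LIDPAD at week 1, and at 80.4 and 71.6 FPM against 30.6 and 27.1 FPM at week 12. The week 1 difference minus the week 12 difference was 1.11 ± 0.17 on the log2 scale (adjusted p = 0.0329). 

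Car2, a carbonic anhydrase, was at 2.78 and 2.9 FPM on control and 2.35 and 2.39 FPM on LIDPAD at week 1, and at 3.03 and 2.75 FPM against 6.55 and 7.22 FPM at week 12. Its difference at week 1 minus that at week 12 was -1.34 ± 0.21 on the log2 scale (adjusted p = 0.0359). Hal, histidine ammonia lyase, was at 204 and 230 FPM on control and 192 and 171 FPM on LIDPAD at week 1, and at 161 and 172 FPM against 57.2 and 51.7 FPM at week 12. The week 1 difference minus the week 12 difference was 1.35 ± 0.21 on the log2 scale (adjusted p = 0.0359). Slc35f2, a solute carrier, was at 0.227 and 0.0757 FPM on control and 0.253 and 0 FPM on LIDPAD at week 1, and at 0.0504 and 0 FPM against 2.09 and 2.16 FPM at week 12. Its difference at week 1 minus that at week 12 was -2.40 on the log2 scale. Cidea, a lipid droplet protein, was at 0.0459 and 0 FPM on control and 0 and 0 FPM on LIDPAD at week 1, and at 0.101 and 0.0487 FPM against 9.64 and 8.74 FPM at week 12. The week 1 difference minus the week 12 difference was -4.14 on the log2 scale. 

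For Adgrf1, Plin4, Themis, Igfbp3, Kyat1 and Hal the libraries of the diets lay in the same order without overlap in both weeks, and for Cyp2c70 and Car2 in opposite orders. Slc35f2 and Cidea passed the filter only through later LIDPAD libraries, in which they were high. Themis passed it only through LIDPAD libraries, in which it was likewise high. The values of Slc35f2, Cidea and Themis are a description and no test is read from them, though the count of genes that differed includes them.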

How the results depend on the processing

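The count of 250 called genes at week 1 stayed within 1.5 times under both pseudocounts, no filter, a filter of 5 FPM, both rescalings, quantile normalization and both edgeR fits. It was 63 with no trend, 80 with the spread shared with weeks 4, 8 and 12, 480 by DESeq2 and 2880 with each column as a sample; leaving out 1 library gave 39 to 913. Same-numbered libraries did not deviate together (correlation -0.018), so they share only a number; with a replicate block 383 genes were called. Against weeks 4, 8 and 12, the count of 0 became 1 under each rescaling, which moved the median contrast of all genes to -0.12, and 10 against week 12 alone, and was 0 with a replicate block; leaving out 1 library gave 0 to 4. Of the 92 genes named by rule for a call, none changed direction under the week 1 settings that gave it a value; 8 had none with the filter of 5 FPM, and single genes were not followed with each column as a sample. Of these 92, 30 stayed called whichever library was left out, 60 were lost without control library 1, 48 without control library 2, 60 with no trend and 56 with the spread shared with weeks 4, 8 and 12. The cause of these changes was not tested. With 2 libraries per diet, each gene's own spread is poorly known, and genes under about 1 FPM were not tested.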
